A study of Mus musculus with 6 samples.

Results

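The small Cajal body RNAs (scaRNAs) were followed through a chromatin capture from MEL cells, a mouse erythroleukemia line of C57BL/6 origin per the labels. A member was a Scarna gene of the RefSeq annotation with a single-exon transcript model that held at least 50% of its span and was at most 8 times its length. Of 9 annotated Scarna genes, 6 had such a model, namely Scarna2, Scarna6, Scarna9, Scarna10, Scarna13 and Scarna17, and they were 6 of 7959 models in all. Scarna3a, Scarna3b and Scarna8 had none. Chromatin was crosslinked with formaldehyde in all 6 libraries. Of these, 2 came from input chromatin, 2 from chromatin pulled down with TH59-DB, a telomere-binding polyamide built of pyrrole and imidazole units, and 2 from a pull-down with masked TH59-DB, the negative control. The labels say neither how the probe was masked nor that the 2 libraries of a group are separate cultures; the p-values therefore measure only the spread between these libraries, which may be technical. The kit keeps strand, but how strand entered the counting is not stated, so sense and antisense reads at a locus cannot be told apart.

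ScaRNAs are guide RNAs that collect in the Cajal body, a nuclear body in which spliceosomal small nuclear RNAs mature. Those with C and D boxes direct ribose methylation, those with H and ACA boxes direct the conversion of uridine to pseudouridine, and some carry both kinds of box. Most are cut from introns of host genes, and Terc, the RNA of telomerase, carries the same kind of Cajal body signal and is bound by the same H/ACA proteins.

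The sequence below is shown because it lies at one edge of Scarna13, the most abundant of the 6 per length in every library, and almost wholly inside its model. It is the RefSeq hairpin Mir3069, annotated on the minus strand at chr12:105031077-105031141 (GRCm38.p6), and its 65 bases make up 23.6% of the Scarna13 span. Capitals mark its last ACA, the letters of the box after which the H/ACA class is named.
Mir3069: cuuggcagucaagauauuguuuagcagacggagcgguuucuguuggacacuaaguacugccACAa
In the annotation 2 bases of the gene lie beyond the hairpin, so 3 bases separate this ACA from the end of the Scarna13 span. Of 1005 mouse hairpins in the same table, 66 (6.57%) end with 1 base after their last ACA, as Mir3069 does. Only the annotated strand was read, and the share at 3 bases was not computed. The reads of Scarna13 and of Mir3069 cannot be told apart here, since the model covers all but 1 base of the hairpin.

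The models lay on the annotated genes in 2 ways. For Scarna6, a scaRNA in the span of the autophagy gene Atg16l1, the model ran from 87784560 to 87784817 on chromosome 1, was 258 bases long and left 1 of 248 annotated bases outside. For Scarna13, in the span of the long non-coding host gene Snhg10, it ran from 105031078 to 105031360 on chromosome 12, was 283 bases long and left 3 of 275 outside. The other 4 models reached well beyond short annotated spans. The Scarna9 model (chromosome 9, 15326267 to 15326571, 305 bases) held an annotated 42 bases in the span of Cep295, a centriole gene. The Scarna10 model (chromosome 6, 125186360 to 125186687, 328 bases) held 71 bases in the span of Ncapd2, a condensin subunit gene. The Scarna17 model (chromosome 18, 74778392 to 74778725, 334 bases) held 62 bases in the span of the lncRNA gene Gm41774. It also held Gm23119, a further annotated guide RNA of 140 bases, so its reads belong to both. The Scarna2 model (chromosome 3, 108554350 to 108554752, 403 bases) held 86.9% of an annotated 61 bases and lay in the span of no longer gene. A spliced model of 2 exons overlapped that of Scarna10 and had the same count in every library; it is not counted as a further model of the host gene here.

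Library totals ran from 1803723 to 3122558 reads, so that 1 read was 0.320 to 0.554 CPM (its count scaled to a library of 1000000 reads). All 6 scaRNA models passed the filter on low counts, with 7 to 1094 reads in a library. A model in the span of Zc3h7a held 50.8% of the reads of masked TH59-DB 1, and 2.77% to 20.8% of those of the other 5 libraries, which lowers the CPM of every other RNA in that library. TH59-DB 1 also stood apart, since its lowest model count was 5 while the other 5 libraries had models at 0. Having a model, and so membership, was therefore not independent of the reads of TH59-DB 1. Masked TH59-DB 1 had 4341 of 7959 models at 0 and a median count of 0. Input 1, input 2, masked TH59-DB 2 and TH59-DB 2 had 1404 to 1884 models at 0. Of 14 erythroid markers 7 had a model, among them Gata1 and Klf1; their summed level was 785 and 1062 CPM in input chromatin, 435 and 965 with the masked probe and 455 and 337 with TH59-DB. Of 6 markers of other blood cells 2 had a model, Laptm5 and Itga2b, with a summed level of 4.06 to 49.4 CPM. No model of either list passed in any comparison, and their part in the scaRNA values was not tested. Over all tested models 1.41% passed as higher for TH59-DB against masked TH59-DB, 3.58% for TH59-DB against input and 0.26% for masked TH59-DB against input.

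Together the 6 scaRNA models held 404 and 495 reads of the input libraries, 295 and 729 of the masked captures and 831 and 2178 of the TH59-DB captures. They made up 0.0154% ± 0.0027 of the input, 0.0192% ± 0.0059 of masked TH59-DB and 0.0651% ± 0.0269 of TH59-DB reads (SD, n = 2 each). Both TH59-DB libraries, at 0.0461% (95% exact binomial interval 0.0430% to 0.0493%) and 0.0841% (0.0806% to 0.0877%), lay above the other 4, the highest of which was masked TH59-DB 2 at 0.0233% (0.0217% to 0.0251%). PCR copies were not marked by molecular identifiers, so these and later intervals hold for counting error alone. With the 2 most read models of the series taken out of the totals, the TH59-DB shares were 0.0659% and 0.0906%, against 0.0355% and 0.0296% in the masked captures and 0.0175% and 0.0223% in the input. In captured material, more copies of an RNA per cell and a larger bound share of it cannot be told apart.

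Scarna13 guides pseudouridine formation in spliceosomal RNA. It had 46.9 and 60.6 CPM in input chromatin, 93.4 and 92.9 with the masked probe and 269 and 423 with TH59-DB, with 140 to 1094 reads behind each value. The 3 groups did not overlap, and the TH59-DB libraries were the highest. Their mean of 346 CPM ± 108 was 3.72 times the masked mean of 93.1 ± 0.346 and 6.44 times the input mean of 53.7 ± 9.69 (SD, n = 2). With the 2 most read models out of the totals the masked libraries were at 222 and 118, so their closeness depends on the totals. The TH59-DB libraries were then at 385 and 455, and the ratio to masked TH59-DB in number 1 was 1.74.

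Scarna10 combines both box types and guides modification of the U5 RNA of the spliceosome. Its levels were 18.1 and 15.8 CPM in input chromatin, 15.2 and 32.7 with the masked probe and 42.1 and 91.9 with TH59-DB. Both TH59-DB libraries were above the other 4, while the masked libraries spread across the input values. With the 2 most read models out of the totals both masked libraries (36.1 and 41.5) lay above both input libraries (23.4 and 20.2). The ratio of means was 2.80 against masked TH59-DB and 3.96 against input.

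Scarna2, a C/D guide for the U2 RNA, had 25.1 and 28.4 CPM in input chromatin, 17.8 and 21.5 with the masked probe and 64.9 and 66.05 with TH59-DB. The TH59-DB mean was 65.5 CPM ± 0.835 (SD, n = 2), but with the 2 most read models out of the totals these libraries were at 92.8 and 71.2. The ratio of means was 3.34 against masked TH59-DB and 2.45 against input.

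Scarna9, another C/D guide for the U2 RNA, had 29.1 and 37.1 CPM in input chromatin, 9.64 and 74.3 with the masked probe and 56.5 and 174 with TH59-DB. Masked TH59-DB 2 exceeded TH59-DB 1, so the capture groups overlapped. Both TH59-DB libraries were above both input libraries.

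Scarna6 had 13.7 and 26.3 CPM in input chromatin, 3.55 and 7.37 with the masked probe and 13.3 and 60.3 with TH59-DB. The masked libraries, with 7 and 23 reads, were below all others, and TH59-DB 1 lay at the level of the lower input library. Its ratio of means was 6.74 against masked TH59-DB, the highest of the 6, and 1.84 against input, the lowest.

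Scarna17, a C/D guide, had the fewest reads over the 6 libraries. Its levels were 2.34 and 5.25 CPM in input chromatin, 10.1 and 4.80 with the masked probe and 14.4 and 26.3 with TH59-DB, from 7 to 68 reads. Both TH59-DB libraries were above the other 4, but with the 2 most read models out of the totals masked TH59-DB 1 (24.1) exceeded TH59-DB 1 (20.6).

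**Figure D1:**
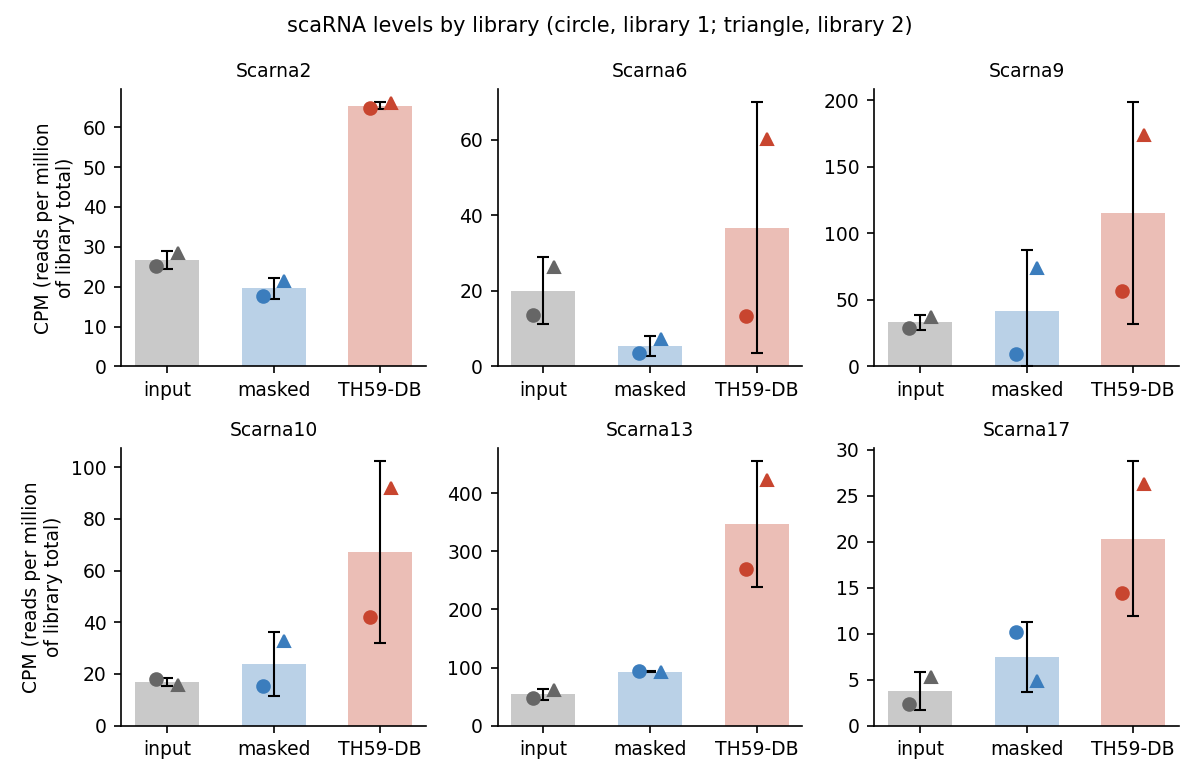
Level of each scaRNA model in CPM (vertical axes start at 0) in the input, masked TH59-DB and TH59-DB groups; points are libraries, bars are means of 2 and error bars are the SD, drawn no lower than 0. Scarna13 reaches 423 CPM in TH59-DB 2, and in Scarna9 the masked libraries, at 9.64 and 74.3, overlap those of TH59-DB.

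Compared per length, in FPKM (CPM per kilobase of model), Scarna13 was first in all 3 groups and apart from the next. It had 190 ± 34.2 in input chromatin, 329 ± 1.22 with the masked probe and 1223 ± 383 with TH59-DB (SD, n = 2). The masked SD of 1.22 holds only for the full library totals. Scarna9 was second on the mean of each group, at 109 ± 18.5, 138 ± 150 and 378 ± 273 FPKM. In the input it overlapped Scarna6 (77.5 ± 34.4), which overlapped Scarna2 (66.4 ± 5.70), and Scarna10 (51.6 ± 5.02) and Scarna17 (11.4 ± 6.16) followed apart from their neighbours. In TH59-DB neighbours in the order from Scarna9 down to Scarna10, Scarna2, Scarna6 and Scarna17 all overlapped. Scarna6 had the third highest mean of the input, the lowest of masked TH59-DB (21.2 ± 10.5) and the lowest but one of TH59-DB (143 ± 129). Scarna13 was above 95.7% to 99.0% of all models per length in every library, and Scarna17 above 45.1% to 92.8%.

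The make-up of the scaRNA reads does not depend on the library total. Scarna13 gave 34.7% (95% exact binomial interval 30.0% to 39.5%) and 34.9% (30.7% to 39.3%) of them in the input libraries. It gave 62.4% (56.6% to 67.9%) and 39.8% (36.2% to 43.4%) in masked TH59-DB, and 58.5% (55.0% to 61.9%) and 50.2% (48.1% to 52.4%) in TH59-DB. All 4 captures were above both input libraries, and the captures with each probe overlapped. Scarna6 ran the other way, with 10.1% and 15.2% of input, 2.37% and 3.16% of masked and 2.89% and 7.16% of TH59-DB scaRNA reads. Its share was below both input values in all 4 captures. The same held for Scarna2, with 18.6% and 16.4% of input, 11.9% and 9.19% of masked and 14.1% and 7.85% of TH59-DB scaRNA reads. Scarna9 showed no such order, at 21.5% and 21.4%, 6.44% and 31.8%, and 12.3% and 20.7% in the same order of libraries. The shares add up to the whole, so a larger share of one lowers the others, and these differences were described and not tested.

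**Figure D2:**
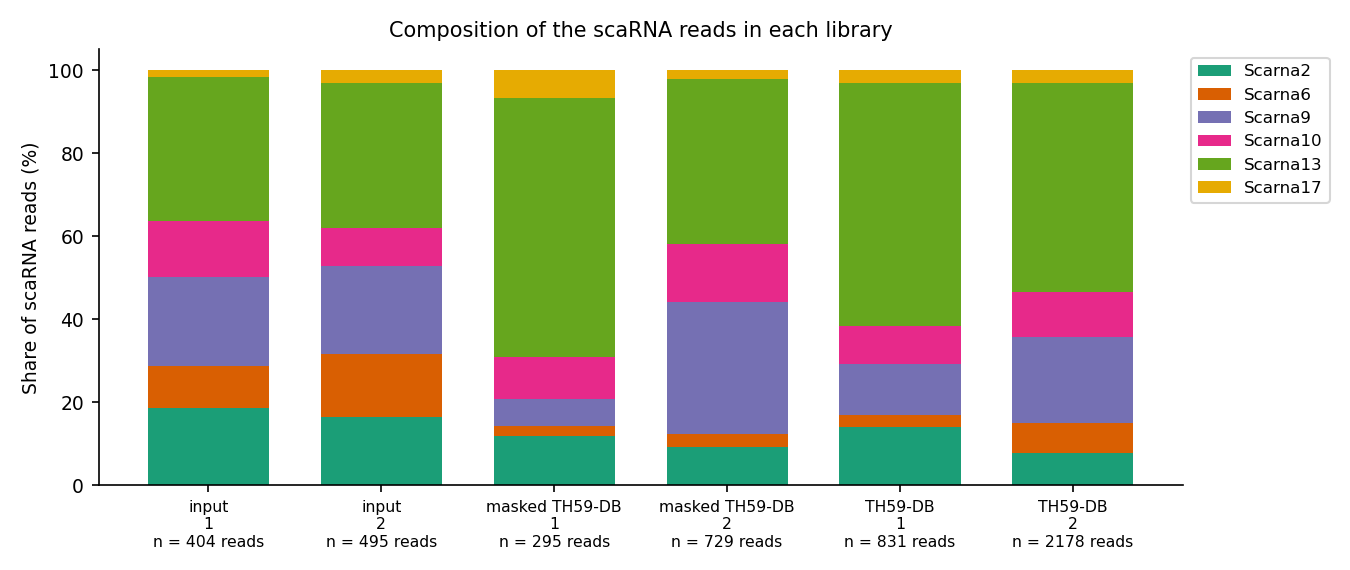
Share of the scaRNA reads (%) that each of the 6 scaRNAs gave in each library, with the number of scaRNA reads under each bar. Scarna13 takes 34.7% and 34.9% of the input bars and 39.8% to 62.4% of the capture bars.

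Capture with TH59-DB was set against capture with masked TH59-DB to ask which RNAs came down with telomere-bound probe and not with its control. None of the 6 scaRNAs passed at an adjusted p under 0.05 (edgeR's quasi-likelihood test, Benjamini-Hochberg over 5385 models), while 1.41% of all tested models passed as higher. At an unadjusted p under 0.05, 5 of the 6 were higher, against 445 models in all (8.26%). DESeq2 called 2 of them, Scarna6 and Scarna13, and 4.73% of all models with an adjusted p as higher. All 6 fitted log2 fold changes were positive, as were 59.6% of all tested models, and 5 of 6 had both TH59-DB libraries above both masked ones and 0 had both below, against 16.1% and 14.7% of all tested models. With the 2 most read models out of the totals Scarna17 overlapped as well, so 4 of 6 had both above. The share over all models was not computed for those totals. The log2 fold change was 3.34 for Scarna6 (SE 0.971, adjusted p = 0.163), 2.24 for Scarna13 (SE 0.776, 0.272) and 2.15 for Scarna9 (SE 0.957, 0.481). It was 2.02 for Scarna2 (SE 0.649, 0.220), 1.997 for Scarna10 (SE 0.778, 0.360) and 1.75 for Scarna17 (SE 0.974, 0.698). Their median was 2.09, beside 0.30 over all tested models.

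These values hung on TH59-DB 2. The fit's scaling factors (TMM) were 0.681 for TH59-DB 2 and 1.33 for TH59-DB 1. With library totals and no TMM the scaRNA median was 1.61, and the part of the scaling was not tested. Without TH59-DB 2 the filter kept 7121 models, against 5385 in the main fit, so the all-model medians are not over the same models. The 6 log2 fold changes then ran from 0.11 for Scarna9 to 1.29 for Scarna2. Their median of 0.66 lay below that of all tested models, 0.86. Without TH59-DB 1 they ran from 2.44 to 4.35, their median was 2.89 beside 0.26 for all models, and Scarna6 (adjusted p = 0.00728), Scarna13 (0.0454) and Scarna10 (0.0496) had an adjusted p under 0.05, as did 2.52% of all tested models as higher. That fit has a lone TH59-DB library, which is assumed to vary like those of the other groups, and the same holds for every fit that leaves out a library of a compared group. Without masked TH59-DB 2 the scaRNA median was 1.94, below the 5.10 of the 7190 models then tested, and Scarna6 had 3.475. The lone control was then masked TH59-DB 1, with 4341 models at 0 reads. Between same-numbered libraries the CPM ratio of TH59-DB to masked TH59-DB was above 1 for all 6 in both numbers. It was higher in number 2 for Scarna6 (3.75 in number 1 and 8.18 in number 2), Scarna13 (2.89 and 4.55) and Scarna17 (1.42 and 5.47). It was lower in number 2 for Scarna9 (5.87 and 2.34) and Scarna2 (3.65 and 3.08), and Scarna10 had 2.77 and 2.81. With the 2 most read models out of the totals the ratios in number 1 were 0.856 for Scarna17 and 1.67 to 3.53 for the other 5.

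**Figure D3:**
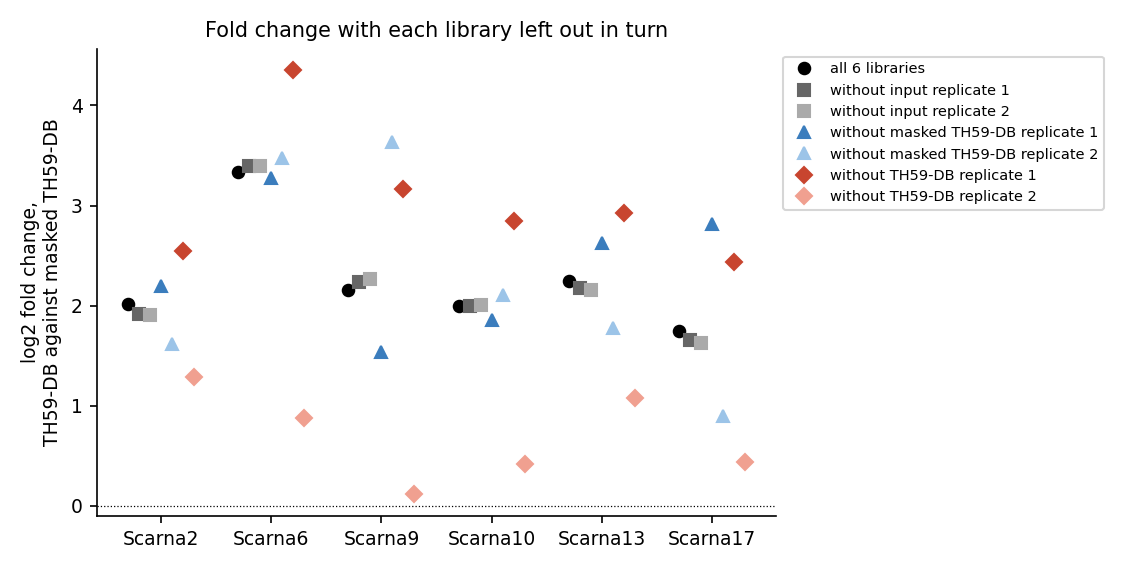
Fitted log2 fold change of each scaRNA, TH59-DB against masked TH59-DB, with all 6 libraries (black) and with each library left out in turn. Every scaRNA has its lowest value without TH59-DB 2, from 0.11 to 1.29, and all points lie above 0.

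Against the input, which asks how the captured RNA differs from the RNA of the starting chromatin, 0 of the 6 scaRNAs passed, while 3.58% of all tested models passed as higher and 0.0371% as lower. At an unadjusted p under 0.05 edgeR gave 3 scaRNAs as higher, against 477 models (8.86%). DESeq2 called 2 of them, Scarna13 and Scarna10, and 6.31% of all models with an adjusted p as higher. All 6 values were positive, as were 50.9% of all tested models, and 5 of 6 had both TH59-DB libraries above both input ones and 0 had both below, against 22.5% and 23.5%. The log2 fold change of Scarna13 was 2.88 (SE 0.796, adjusted p = 0.0928), and Scarna17 had 2.70 (SE 1.01, 0.234). Scarna10 had 2.19 (SE 0.784, 0.212) and Scarna9 2.11 (SE 0.956, 0.356). Scarna2 had 1.37 (SE 0.634, 0.371) and Scarna6 1.30 (SE 0.885, 0.631). The median was 2.15, beside 0.03 over all tested models. Without TH59-DB 2 the median was 0.47, beside 0.48 over the 7121 models of that fit, more than the 5385 of the main fit. The values of Scarna6 (-1.31) and Scarna9 (-0.02) were then negative. Without TH59-DB 1 the median was 3.21, and Scarna13 (adjusted p = 0.00675), Scarna10 (0.0187) and Scarna9 (0.0453) had an adjusted p under 0.05, as did 3.43% of all tested models as higher; the spread came from the other groups alone. Leaving out either masked library, which shares the fit's spread, gave Scarna17 an adjusted p of 0.00240 or 0.00438, with 8.66% or 9.58% of all tested models called higher. This comparison shares the TH59-DB libraries with the one before.

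With the masked probe against the input, 0 of 6 passed in edgeR, beside 0.26% of all tested models as higher, and 0 in DESeq2, beside 3.31%. At an unadjusted p under 0.05 edgeR gave 0 scaRNAs, beside 3.86% of all tested models as higher. The scaRNAs split here, with 3 values above 0 and 3 below, beside 39.7% of all tested models above 0. Both masked libraries were above both input libraries for Scarna13 and below both for Scarna2 and Scarna6, against 15.9% and 14.4% of all tested models. With the 2 most read models out of the totals Scarna2 overlapped instead, with 42.2 and 27.2 masked against 32.6 and 36.4 input, and Scarna10 joined Scarna13 above the input. For Scarna6 the log2 fold change was -2.04 (SE 0.935, adjusted p = 0.739), and both masked libraries lay below both input libraries also with the 2 most read models out of the totals. Scarna2 had -0.65 (SE 0.633, 0.874) and Scarna9 -0.04 (SE 0.924, 1). Scarna10 had 0.19 (SE 0.760, 0.984), Scarna13 0.64 (SE 0.748, 0.900) and Scarna17 0.96 (SE 0.990, 0.883). The median was 0.08, beside -0.26 over all tested models. The sign of Scarna9 turned under other scalings and without single libraries, that of Scarna10 turned without input 2, and that of Scarna17 turned without masked TH59-DB 1. Both of the other comparisons share libraries with this one.

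**Figure D4:**
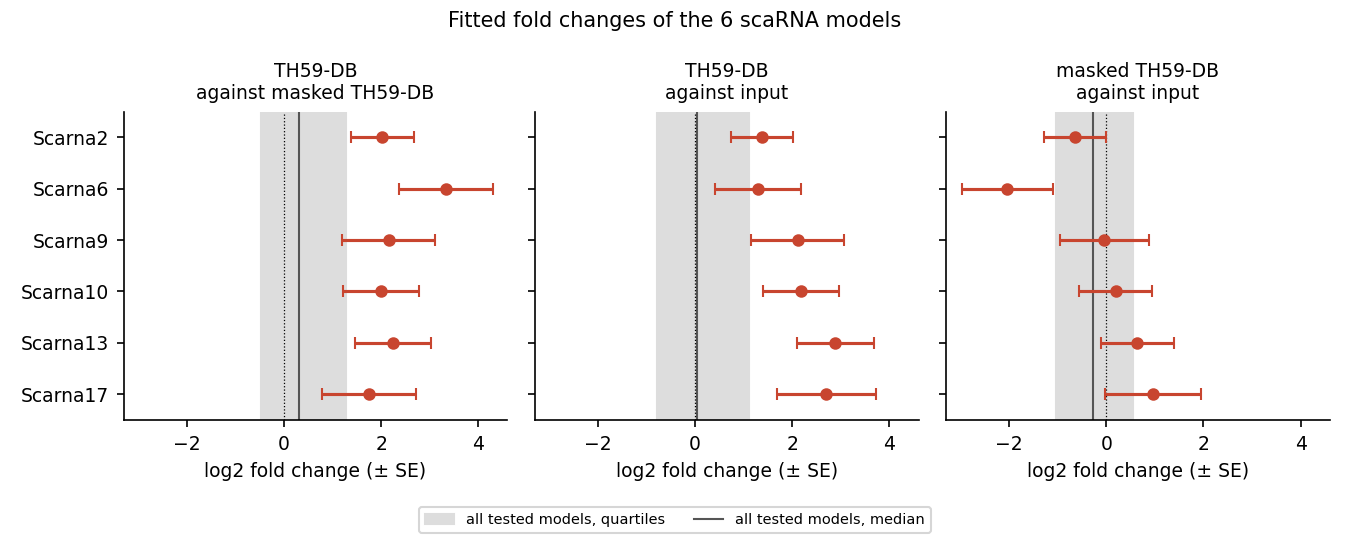
Fitted log2 fold change of each scaRNA with its SE in the 3 comparisons; the grey band spans the quartiles of all 5385 tested models and the line is their median. In both comparisons of TH59-DB the 6 points, from 1.30 to 3.34, lie above the band, while against input the masked probe gives values from -2.04 to 0.96.

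The other models of the host spans of Cep295 and Ncapd2 were few and had at most 27 reads in a library, apart from the spliced model that overlaps Scarna10. In Cep295 the 2 other models had 6 to 25 reads in an input library and 2 to 12 with TH59-DB. They had 7 and 27 in masked TH59-DB 2 and none in masked TH59-DB 1, where 4341 of 7959 models had none. Per length, Scarna9 was 5.54 and 5.78 times the Cep295 model of 3 exons in the input, 6.56 times in masked TH59-DB 2 and 7.08 and 28.7 times in TH59-DB. The counting intervals were 3.01 to 11.1 and 3.30 to 10.9 in the input and 16.3 to 56.0 in TH59-DB 2, and those of masked TH59-DB 2 and TH59-DB 1 overlapped the input intervals. Against the single-exon Cep295 model the ratios were 13.4 and 3.91 in the input, 30.5 in masked TH59-DB 2, 7.83 in TH59-DB 1 and 208 in TH59-DB 2, the last over 2 host reads (57.2 to 1721). There masked TH59-DB 2 also lay above both input values, with intervals that overlapped (14.6 to 76.8, and 5.90 to 37.4 in input 1). The model of 3 exons had 0.73 on the log2 scale between the captures (SE 1.55, adjusted p = 0.972).

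In Ncapd2 the other model, of 226 bases, had 10 and 12 reads in input chromatin, 0 and 20 with the masked probe and 10 and 9 with TH59-DB. Scarna10 was 3.72 and 2.58 times as high per length in the input, 3.51 times in masked TH59-DB 2 and 5.24 and 18.2 times in TH59-DB. The host model had 0.85 on the log2 scale between the captures (SE 1.61, adjusted p = 0.964). Counts of 10 to 12 are near the low end of TH59-DB 1, where 24.9% of all models had 12 reads or fewer and none fewer than 5; the part of this in the host ratios was not tested. Snhg10 and Gm41774 had no model other than those of Scarna13 and Scarna17.

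In Atg16l1 a model of 279 bases from 87776937 to 87777215 covered Gm25395, an annotated guide RNA of 272 bases, so this gene span held 2 guide RNAs. Per length Gm25395 was above Scarna6 in every library but input 2. The counting interval of the ratio of Scarna6 to Gm25395 lay below 1 only in TH59-DB 1 (0.164 to 0.422). It lay above 1 in input 2 (1.25 to 2.74) and included 1 in the remaining libraries, such as TH59-DB 2 (0.793 to 1.24). Gm25395 had 21.1 and 15.4 CPM in input chromatin, 8.12 and 10.6 with the masked probe and 53.8 and 65.7 with TH59-DB. Its groups did not overlap, and the order of masked below input below TH59-DB was that of the mean levels of Scarna6. The log2 fold change between the captures was 3.01 (SE 0.743, adjusted p = 0.0829), and it did not pass. The remaining Atg16l1 model, from 87756078 to 87756302, had 9.04 and 9.11 CPM in input chromatin, 0 and 12.5 with the masked probe and 5.54 and 1.93 with TH59-DB. Its log2 fold change was -0.46 (SE 1.497, adjusted p = 0.977). Per length, Scarna6 was 1.32 and 2.52 times this model in the input, 0.514 times in masked TH59-DB 2 and 2.09 and 27.2 times in TH59-DB. The TH59-DB ratios stood over 10 and 5 reads of this model, with counting intervals of 0.965 to 4.90 and 11.4 to 85.0.

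**Figure D5:**
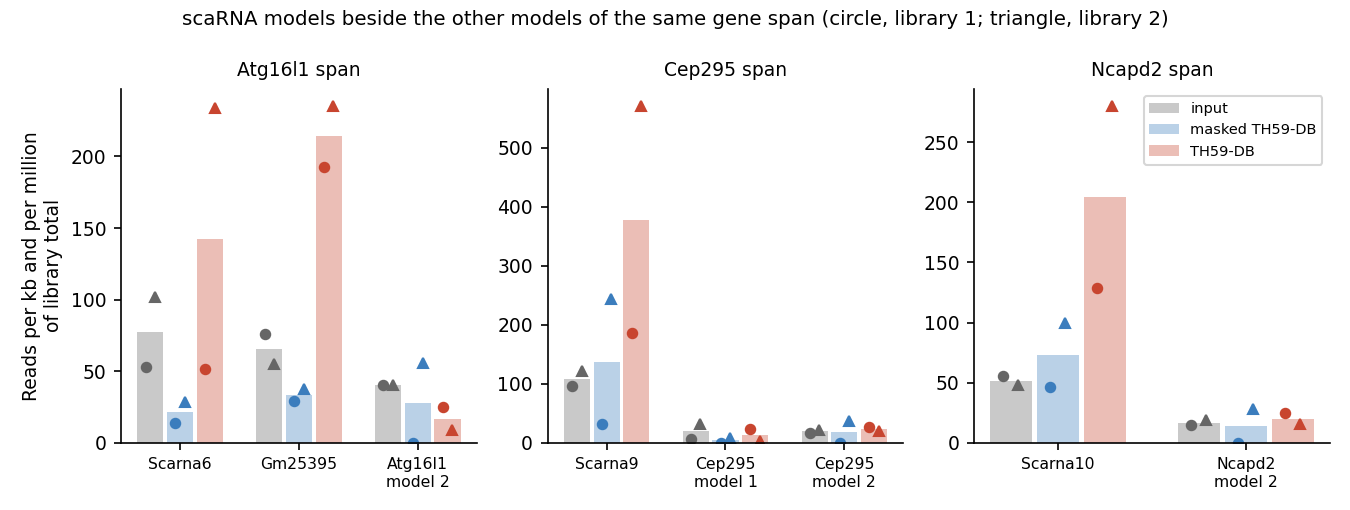
Levels per length of Scarna6, Scarna9 and Scarna10 beside the other models in the spans of Atg16l1, Cep295 and Ncapd2, per group; bars are means of 2 libraries and points are libraries. Gm25395, a guide RNA in Atg16l1, and the scaRNAs have their highest group mean in TH59-DB, while the remaining models reach at most 55.5, in masked TH59-DB 2.

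Beyond the Scarna names, the annotation holds 32 guide RNA genes, and 4 of them had a model of their own under the same rule; these were looked up after the values were seen. All 4 had a positive log2 fold change of TH59-DB against masked TH59-DB, as did 59.6% of all tested models. None of the 4 passed (adjusted p = 0.0654 to 0.751), beside 1.41% of all tested models as higher. Gm22009, in the span of the importin gene Kpna4, had 15.1 and 11.6 CPM in input chromatin, 1.01 and 4.16 with the masked probe and 23.8 and 39.0 with TH59-DB (log2 fold change 4.03, SE 0.932, adjusted p = 0.0654). Gm25820, in the span of Khdc4, had 16.4 and 2.80, 0.507 and 1.60, and 8.32 and 6.95 CPM in the same order. Gm22442, in the span of the chromatin remodeler gene Chd3, had 6.70 and 9.11, 0 and 16.01, and 7.76 and 37.5 CPM. In Gm25395, Gm22009 and Gm25820 both masked libraries were the lowest, as they were for Scarna6. Among all tested models, 14.4% had both masked libraries below both input ones and 16.1% had both TH59-DB libraries above both masked ones. The share of models with both traits was not computed.

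The RNAs that scaRNAs guide were thinly covered, since 2 of 9 listed spliceosomal RNA genes had a model, Rnu11 and Rnu12. Both RNAs belong to the minor spliceosome, and 0 passed in any of the 3 comparisons. Over all tested models 1.41% passed as higher between the captures, 3.58% for TH59-DB against input and 0.26% for the masked probe against input. Rnu11 had 45.2 and 8.76 CPM in input chromatin, 11.2 and 12.5 with the masked probe and 90.4 and 31.7 with TH59-DB (log2 fold change between the captures 2.40, SE 0.900, adjusted p = 0.332). Rnu12 had 70.0 and 7.01, 16.2 and 12.2, and 50.5 and 20.9 CPM (1.35, SE 1.01, adjusted p = 0.841).

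The protein genes of the Cajal body and of the guide RNA particles differed from the scaRNAs in their medians, with no test of that difference. Of 35 listed genes 19 had a model, in 29 models of which 24 were tested. Of all tested models, 1.41% passed as higher between the captures, 3.58% for TH59-DB against input and 0.26% for the masked probe against input. Between the captures 0 models of the list passed in either direction, with a median log2 fold change of 0.29 beside 0.30 over all models. Against input 0 passed with a median of 0.08, and with the masked probe against input 0 passed with a median of -0.61. The most read were Nolc1, a nucleolar and Cajal body phosphoprotein gene (-0.14, adjusted p = 0.980), and Nop56, which encodes a core protein of C/D particles (-1.28, 0.554). Strap, a gene of the SMN complex that assembles small nuclear RNPs, had -0.997 (0.949) and Tardbp, an RNA-binding protein gene, -1.39 (0.765). Nhp2, which encodes an H/ACA core protein, had -0.02 (0.997). These are values of mRNA models. None of these 5 lay above 0, but 12 of the 24 tested models of the list did, in a range from -1.58 to 8.13.

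Terc was on another scale than the scaRNAs. Per length it had 68.9 and 49.0 FPKM in input chromatin, 159 and 98.2 with the masked probe and 64464 and 28719 with TH59-DB. In the input these levels lay within the range of the 6 scaRNAs, 7.02 to 214 FPKM, whereas with TH59-DB the highest scaRNA level was 1493. The log2 fold change between the captures was 8.50 (SE 1.44, adjusted p = 0.0248), and of the scaRNAs at most 3.34; the difference between them was not tested.

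Likeness of pattern was measured as the distance between log2(CPM + 0.5) profiles over the 6 libraries, each centred on its own mean, among tested models in gene spans. Models of the scaRNA's own host span and models that overlap it were left out, so Gm25395 was not ranked for Scarna6. The nearest to Scarna13 were models in Ppp1r10 (distance 0.706), Ndufaf2 (0.898) and Cyp11a1 (0.918), and those nearest to Scarna17 were in Trip11 (0.715), Cyp11a1 (0.814) and Gm1976 (0.874). For Scarna2 they were Slfn8 (0.363), the small nuclear RNA Rn7sk (0.532) and 2700099C18Rik (0.817), and for Scarna10 Slc8a3 (0.685), 4930526I15Rik (0.829) and 2700099C18Rik (0.849). For Scarna9 they were Zbed6 (0.810), Zfp638 (1.15) and Zfp882 (1.19). Scarna6 had no close match among the models ranked, the nearest being Zfp62 (1.66), E2f8 (1.69) and Zfp407 (1.74). Several of these models had few reads, such as 3 to 23 in Cyp11a1. Among the scaRNAs the closest pair was Scarna13 and Scarna17 (0.972) and the farthest Scarna6 and Scarna17 (3.19). The profile of Rn7sk, an RNA that regulates transcription elongation, had 1154 and 1474 CPM in input chromatin, 765 and 1358 with the masked probe and 2815 and 2615 with TH59-DB. The profiles share library totals, so nearness also reflects what moves a whole library.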

How the data were processed

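The deposited files hold read counts per assembled transcript model, and FPKM values that the authors made, 1 library per file. FPKM equalled count over model length and a library total, which was recovered from it. The submitters' processing notes name cutadapt, HISAT2, Cufflinks and featureCounts, and build mm10; versions and the strand setting of counting are not given in the sources used here. Files were joined on chromosome, starts and ends (7695 models) or on chromosome, first start and length (264). Genes came from RefSeq, GRCm38.p6. Counts were tested with edgeR 4.0.16 in R 4.3.3 (filterByExpr, TMM, robust quasi-likelihood F-test, 1 fit of 6 libraries with a group term, 2-sided). DESeq2 1.42.0 was run as an alternative. The edgeR test was also run on simulated data, the outcome of which is not given here. In the main fit the biological coefficient of variation, the spread between libraries of a group, was 0.702. The power to call a change at that spread is not given here. The fit's SE is the log2 fold change over the root of F. Ratios are of mean CPM; intervals are exact binomial (95%). Named genes were all Scarna genes with a model, their hosts' models, Terc, the 5 most read of each list and the 3 nearest patterns. Members and lists were chosen with earlier results of these data known. A title without a number was taken as library 1 of its group. Sequences of the scaRNAs themselves were not used here.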

Additional observations from a re-analysis of the deposited data

How the results depend on the processing

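Over 12 alternatives for each of 6 scaRNAs, 64 of 72 values between the captures kept their direction and side of the threshold, 8 passed it and 0 turned. Against input these counts were 61, 9 and 2, and for the masked probe against input 63, 0 and 9. Between the captures the number called higher, 0 as reported, was 2 with DESeq2, 1 with no filter, 1 with the replicate block and 0 to 3 with 1 library left out. Against input it was 2 with DESeq2, 1 with library totals without TMM, 1 with the replicate block and 0 to 3 with 1 library left out. Between the captures, 2.56% of all models were called higher with no filter and 3.45% with the replicate block. Against input the share was 3.84% with library totals without TMM and 4.55% with the replicate block. The replicate block added Scarna6 between the captures (log2 fold change 2.98, adjusted p = 0.0234) and Scarna13 against input (2.81, 0.00800). Deviations of same-numbered libraries from their group means correlated at 0.129, 0.0885 and -0.00786 over all tested models; the numbers were not taken to pair libraries, and a shared batch was not tested. Against input, with 1 library left out, Scarna6 ran from -1.31 to 2.48 and Scarna9 from -0.0169 to 3.22. For the masked probe, Scarna9 (-0.04) was 0.0736 with DESeq2, 0.35 with library totals without TMM, 0.44 with summed counts without TMM, 0.0427 with no filter and -1.33 to 0.73 with 1 library left out. Scarna10 then ran from -0.0146 to 0.79 and Scarna17 from -0.0237 to 1.92; the causes were not tested. A limit of 4 times the gene length left 2 scaRNA genes, 16 times left 6, and cover of the whole span left 3, the last chosen after seeing the data. The share of reads in scaRNA models was 0.0322%, 0.0380% and 0.157% of summed counts in the input, masked TH59-DB and TH59-DB, and 0.0199% and 0.0326% in the first 2 without the 2 most read models, also chosen afterwards. Over all models 76 were called higher between the captures as reported, and 245 with DESeq2, 204 with no filter, 186 with the replicate block, 153 with library totals without TMM and 32 to 1479 with 1 library left out. Against input, 193 became 327 with DESeq2 and 89 to 689 with 1 library left out, and for the masked probe 14 became 100 with DESeq2 and 0 to 409.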
